A study of Mus musculus with 144 samples.

Results

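Cathepsins are the main proteases of the lysosome, and cystatins are small proteins that block the cysteine cathepsins. Described here are 10 of the 55364 genes in the deposited table, matched by symbol, each to 1 row. They comprise 8 cathepsins (Ctsa, Ctsb, Ctsc, Ctsd, Ctsh, Ctsl, Ctss and Ctsz) and 2 cystatins (Cst3 and Cst7). They were measured in microglia, the tissue macrophages of the retina, cell by cell, after injury to the optic nerve.

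The cells came from C57BL/6 mice aged 20 to 22 months that carried Iba1-EGFP, a transgene that puts green fluorescence in cells using the Iba1 promoter, which macrophages and microglia share. All groups carried it. Single cells were sorted 1 per well into 3 plates of 48 wells: 54 wells from retina without crush, 36 from day 2 after optic nerve crush and 54 from day 4, by title. The 18 day 4 wells of plate 1 carry a treatment tag of day 2, and animals are not named in the labels. Each group is therefore 1 sample, no test between groups was possible, and spreads are over wells.

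Recovered reads separated 88 deep wells, with 60079 to 8065036 reads assigned to genes, from 56 shallow wells with 643 to 14205. The deep wells numbered 39 uncrushed, 25 at day 2 and 24 at day 4, of which 2 lay on plate 3. Median genes per deep well were 3161, 3777 and 4992 in that order, so breadth of detection moved with the groups. No 2 wells held identical values, and each group filled its own rows of every plate. At least 3 of 11 microglia markers reached 10 reads in 37 of 39, 21 of 25 and 21 of 24 deep wells, and none did in 0, 2 and 1. At least 3 of 10 neutrophil markers reached 10 reads in 1, 6 and 2 wells, and at least 3 of 13 rod photoreceptor markers in 4, 1 and 1. The summed neutrophil markers ranged from 0 to 158628 FPKM in uncrushed wells, 0 to 148508 at day 2 and 0 to 101702 at day 4. Camp, Ltf and Ngp were listed at 0 in every deep well. FPKM is reads per kilobase of gene, scaled to 1000000 assigned reads per well.

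Cathepsins are made as inactive precursors, sorted to the acid lysosome and cut into active enzymes there. Most are cysteine proteases, whereas Ctsd encodes an aspartic protease and Ctsa a serine carboxypeptidase that also protects lysosomal glycosidases. Cystatin C, the product of Cst3, is a secreted inhibitor that microglia express strongly. Cystatin F, the product of Cst7, acts inside endolysosomes, where cathepsin C is a known target, and its transcript is known from microglia around lesions and plaques.

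The 250 bases before the start site were read from RefSeq promoters (GRCm38.p6), which matched 8 of the 10 genes in 9 windows. The windows of 3 genes are shown because Cst3 and Ctss were the pair of members most alike across wells, while Cst7 differed from both. Cst3 is cut to the 70 bases that lie outside the gene as the deposited table bounds it. They lie at chr2:148875693-148875762 (minus strand), chr3:95526536-95526785 (plus) and chr2:150570165-150570414 (plus). Capitals mark GAGGAA, a core letter string of sites for PU.1, a transcription factor of the myeloid lineage. Only this string was searched for PU.1, so a window without capitals is not shown to lack its sites.
Cst3: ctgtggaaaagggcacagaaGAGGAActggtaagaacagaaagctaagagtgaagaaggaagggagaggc
Ctss: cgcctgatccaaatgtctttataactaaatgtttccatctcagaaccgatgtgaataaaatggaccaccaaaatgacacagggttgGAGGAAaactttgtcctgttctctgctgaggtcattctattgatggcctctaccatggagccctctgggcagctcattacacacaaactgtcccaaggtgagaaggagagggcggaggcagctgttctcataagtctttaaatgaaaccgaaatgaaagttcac
Cst7: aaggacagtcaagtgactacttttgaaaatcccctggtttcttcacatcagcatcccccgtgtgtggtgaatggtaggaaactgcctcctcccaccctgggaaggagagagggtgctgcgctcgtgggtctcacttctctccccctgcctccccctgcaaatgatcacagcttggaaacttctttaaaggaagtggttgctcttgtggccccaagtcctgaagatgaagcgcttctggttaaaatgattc
GAGGAA, searched on both strands, stood 230 bases before the RefSeq start of Cst3, 164 before that of Ctss and 196 and 149 before that of Ctsc. All distances here are to the RefSeq start. For Cst3 that start lies inside the gene as the deposited table bounds it, beyond 180 bases that are not printed. The string was in 3 of the 9 windows and in 23.3% of all 32851 promoter windows. Ctsc, whose window is not shown, had the lowest correlation with Cst3 of all 45 member pairs (Spearman rho -0.15 over deep wells). The windows shown were picked by likeness, so they cannot link the string to it. CACGTG, the letters of the E-box found in many lysosomal gene promoters, was in 3 of the 9 windows and 6.02% of all. These were Ctsd, at 245 and 98 bases before the start, Ctsl at 236 and 1 window of Ctsa at 12. The windows of Ctsl and of this Ctsa start lie inside the genes as the deposited table bounds them, and so does the site of Ctsd at 98. TGANTCA, the AP-1 letters, was in 0 of the 9 windows and 6.75% of all. CACGTG and TGANTCA read the same on both strands, and a match of letters is not a measured site.

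Cst3 (ENSMUSG00000027447, GRCm38 chr2:148871722-148875692, minus strand) was lower after crush in deep wells on every plate. Its FPKM in uncrushed wells ran from 1669 to 193962 with a median of 52108. At day 2 the lowest, median and highest were 132, 12241 and 68289, and at day 4 they were 539, 12757 and 29868. The ranges overlapped, but 1 of 25 day 2 wells and 0 of 24 day 4 wells exceeded the uncrushed median. On the scale log2(FPKM + 1), used for every mean and difference here, Cst3 averaged 15.27 ± 1.40 (SD, 39 wells), 13.33 ± 2.08 (25 wells) and 13.02 ± 1.67 (24 wells). The difference from uncrushed wells was -1.93 at day 2 and -2.25 at day 4. Median differences of all genes tested, those that 25% or more of the deep wells of either group held at FPKM 1 or above, were 0.54 and 0.89. Without that filter the medians were 0.042 and 0.12. Cst3 thus lay opposite to the bulk of genes tested: it was the 13th lowest of 3976 genes at day 2 and the 6th lowest of 6362 at day 4. Of the 11 microglia markers, 8 were lower at day 2 (median -0.84) and 5 at day 4 (median 0.067), and the others were higher. Siglech (-2.68) and Csf1r (-2.03) lay below Cst3 at day 2, so a lower value was not particular to Cst3.

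Within plates 1, 2 and 3 the Cst3 difference was -1.75, -2.34 and -1.39 at day 2. At day 4 it was -2.19, -1.86 and -3.73, the last from 2 wells. Day 4 and day 2 differed by -0.32, with values of either sign across plates. Part of the day 2 difference moved with wells that held neutrophil markers: without wells of 3 or more neutrophil or rod markers, which left 34, 19 and 22 wells, the differences were -1.17 and -2.10. Without those wells the medians were 52709, 21022 and 13352 FPKM, so day 2 lay between the other groups. The 9 wells with neutrophil markers had a Cst3 median of 1262 FPKM, against 22236 in the 75 deep wells without neutrophil or rod markers.

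In shallow wells pooled over plates, mean Cst3 was not lower after crush. Its mean there was 14.06 ± 0.79 in 15 uncrushed wells, 14.27 ± 0.61 in 11 day 2 wells and 14.27 ± 0.59 in 30 day 4 wells. Over all wells, deep and shallow, the differences were therefore smaller, -1.31 at day 2 and -1.22 at day 4. Shallow wells made up 30 of 54 wells at day 4 and 15 of 54 uncrushed wells, so their share moved with the groups. By plate, the median Cst3 share of assigned reads in shallow wells went both ways. Uncrushed, day 2 and day 4 values were 1.77%, 3.37% (1 well) and 1.64% on plate 1. They were 5.16% (3 wells), 2.83% and 2.52% on plate 2, and 2.43%, 2.09% and 2.62% on plate 3. Over the 88 deep wells, Cst3 ran against the number of genes per well (Spearman rho -0.30, a description). Median genes per deep well were higher in each later group. The parts of depth and of genes per well in the Cst3 difference were not tested beyond these values.

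Cst3 alone took a median 6.60% of assigned reads in uncrushed deep wells, with a range from 0.211% to 24.6%. The medians were 1.55% at day 2 and 1.61% at day 4, with highest values of 8.65% and 3.78%. It was the gene of highest FPKM in 25 of 39 uncrushed wells (64.1%, exact Clopper-Pearson 95% interval 47.2 to 78.8). The same held in 7 of 25 day 2 wells (28%, 12.1 to 49.4) and in 5 of 24 day 4 wells (20.8%, 7.13 to 42.2). These intervals and those below cover counting error only, since wells may share an animal and amplified reads are not independent molecules. The 8 cathepsins together took medians of 3.29%, 2.79% and 2.97%, which lay close to each other. Reads of Cst3 per cathepsin read accordingly had medians of 1.94, 0.763 and 0.558. Cst3 had fewer reads than the summed cathepsins in 10 of 39 uncrushed wells, 17 of 25 at day 2 and 20 of 24 at day 4. Pooled over plates, the median cathepsin share thus differed little between groups, while that of Cst3 was lower after crush on each plate. By plate the cathepsin share moved in different directions. Uncrushed, day 2 and day 4 medians were 3.49%, 2.79% and 2.60% on plate 1 and 3.29%, 1.87% and 3.79% on plate 2. On plate 3 they were 3.05%, 3.18% and 1.24%, the last from 2 wells.

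**Figure D1:**
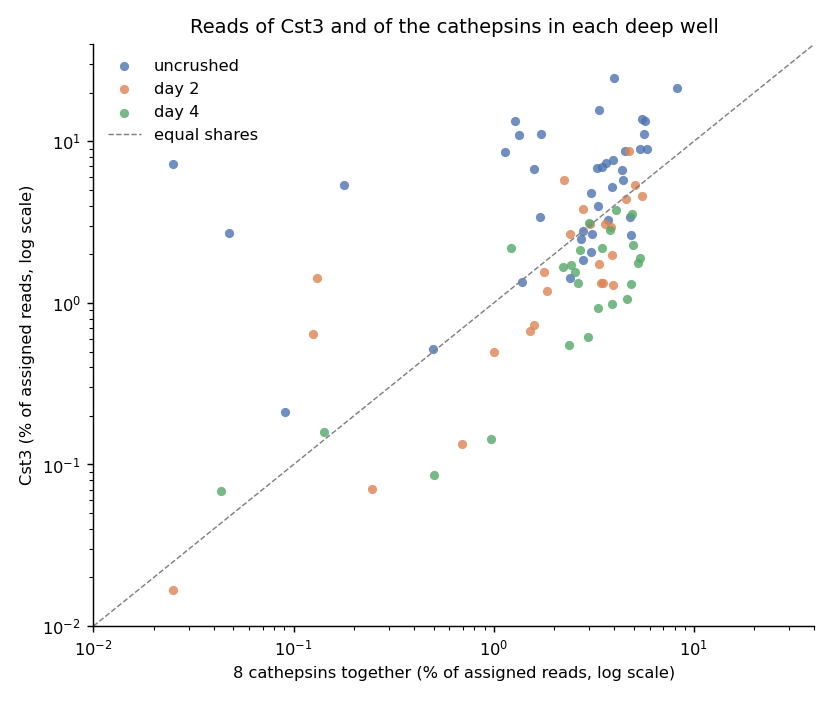
Share of assigned reads held by Cst3 (vertical, percent, log scale) and by the 8 cathepsins together (horizontal, percent, log scale), 1 point per deep well, coloured by group; on the dashed line both shares are equal. Below the line lie 10 of 39 uncrushed, 17 of 25 day 2 and 20 of 24 day 4 wells.

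Cst7 (ENSMUSG00000068129, chr2:150570415-150578944, plus strand) was rare in uncrushed deep wells and strong in a part of the wells after crush. It reached 10 reads in 1 of 39 uncrushed wells (2.56%, 0.065 to 13.5), in 10 of 25 day 2 wells (40%, 21.1 to 61.3) and in 10 of 24 day 4 wells (41.7%, 22.1 to 63.4). Thinned to 50000 reads per well, the shares with at least 1 read were 10.3%, 40% and 41.7%. By FPKM the lowest, median and highest were 0, 0 and 6022 uncrushed, 0, 1.54 and 13529 at day 2, and 0, 6.79 and 1968 at day 4. Most wells of each group thus stayed under 10 reads, and the groups overlapped at the bottom and at the top. Counting any read, 14 of 39 uncrushed, 15 of 25 day 2 and 17 of 24 day 4 wells held Cst7. Over the 88 deep wells Cst7 went with the number of genes per well (Spearman rho 0.36, a description). That number was higher in each later group, and its part in the Cst7 shares was not tested. In wells with neutrophil markers it reached 10 reads in 1 of 9 (median depth 614345 reads), against 20 of 75 deep wells without neutrophil or rod markers (657514 reads).

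Mean Cst7 was 1.13 ± 2.32, 4.24 ± 4.86 and 4.32 ± 4.03, which gave differences from uncrushed wells of 3.11 at day 2 and 3.19 at day 4. These ranked 22nd highest of 3976 and 128th highest of 6362 genes. The sign was the same on each plate, at 2.96, 3.59 and 3.45 for day 2 and 2.69, 3.64 and 2.30 for day 4. Day 4 and day 2 differed by 0.082. A single uncrushed well on plate 2 held 2710 reads of Cst7, and on the ratio of mean FPKM, which it weighs on, the log2 ratio was 2.56 at day 2 and 0.94 at day 4. Without plate 2 the uncrushed share at 10 reads was 0%. In shallow wells a few reads decide the values: 4 of 15 uncrushed, 6 of 11 day 2 and 9 of 30 day 4 wells held any Cst7 read, and 0 wells reached 10.

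Among wells with Cst7 at 10 reads, its level varied widely. The 10 day 2 wells ran from 98.5 to 13529 FPKM and the 10 day 4 wells from 4.58 to 1968. They came from all plates at day 2 (4, 3 and 3 wells) and from plates 1 and 2 at day 4 (4 and 6 wells). The well at 13529 FPKM held Cst7 with Ctss at 25709 and Cst3 at 10442 FPKM, while its Ctsa and Ctsh lay below 1. The uncrushed well at 6022 FPKM had the highest Ctss of all deep wells, 45869 FPKM, and Cst3 at 168270.

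**Figure D2:**
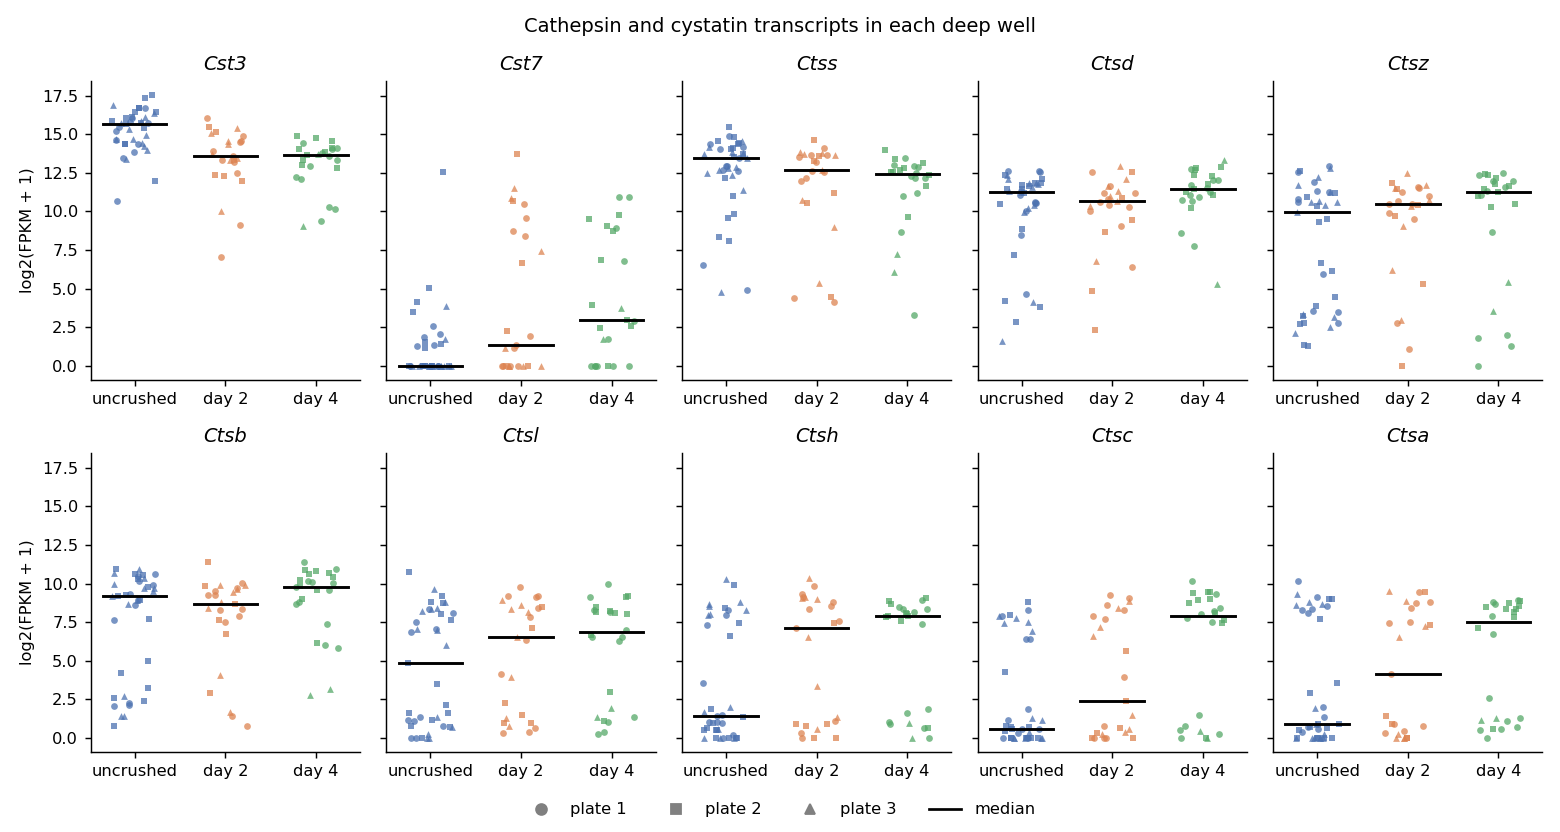
Level of each gene as log2(FPKM + 1) in each deep well (39 uncrushed, 25 day 2, 24 day 4), with plates as symbols and the group median as a bar. Cst3 lies lower after crush, Cst7 has a median of 0 uncrushed, 1.54 FPKM at day 2 and 6.79 FPKM at day 4 with wells at 0 in every group, and Ctsa, Ctsc, Ctsh and Ctsl fall into a high and a low band in every group. Ctsz also spreads widely (SD 4.05 uncrushed, 3.64 at day 2 and 4.21 at day 4).

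The order of the members' levels per length was nearly the same in every group. By median FPKM over deep wells it ran Cst3, Ctss, Ctsd, Ctsz and Ctsb in all groups, and Cst7 was last. Ctsl, Ctsh, Ctsc and Ctsa filled the places between. Neighbours in this order overlapped widely over wells, Ctsz and Ctsb for example spanning 1.44 to 8040 and 0.693 to 1994 FPKM in uncrushed wells. Lengths are unions of all exons, which understates genes with long minor transcripts: 4499 bases against 1617 in the principal transcript for Ctsh and 5808 against 2493 for Ctsc. With principal lengths the first 5 places stayed, and Ctsa and Ctsc (uncrushed) and Ctsc and Ctsh (day 4) exchanged places.

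Of the 10 members, 4 were higher by 1 or more at day 2 (Ctsc, Ctsh, Ctsz and Cst7), where 28.7% of 3976 genes tested were. At day 4 it was 8 of 10, all but Ctss and Cst3, against 44.4% of 6362 genes. On the lower side it was 1 of 10 at day 2 (Cst3), against 2.46% of genes, and 2 of 10 at day 4 (Cst3 and Ctss), against 1.23%. From day 2 to day 4, 3 were higher (Ctsb, Ctsc and Ctsd) against 22.8% of 6446 genes, and 0 lower against 2.06%. Centred on the median gene, the higher members numbered 2 at day 2 and 3 at day 4. All 10 members passed the filter for every comparison, and both days share the uncrushed wells. The median difference of the members was 0.87 at day 2 and 1.39 at day 4, beside 0.54 and 0.89 for all genes tested.

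Wells with neutrophil or rod markers, 6 of 25 at day 2, moved with the day 2 values of the cathepsins. Without them the day 2 difference was 2.65 for Ctsc, 2.76 for Ctsh, 2.75 for Ctsz, 1.85 for Ctsl and 1.31 for Ctsa, and 6 members were higher by 1 or more. The median of all genes tested was then 0.75.

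The day 4 difference of each of the 8 cathepsins was highest on plate 2. Without plate 2, Ctsc (1.42) and Cst7 (2.80) were the members higher by 1 or more at day 4. Ctsa (-0.41), Ctsh (-0.035) and Ctsz (-1.16) then changed sign. These values pool plate 1 with the 2 wells of plate 3. Within plate 1, Ctsb, Ctsc, Ctsh and Ctsl were each higher by 1 or more, from 1.57 for Ctsl to 2.16 for Ctsc. There Ctsd differed by 0.46, and Ctss (-0.86), Ctsz (-0.79) and Ctsa (-1.25) were lower. Day 4 wells of plate 2 had a median of 6947 genes, against 4992 on plate 1 and 1739.5 in the 2 wells of plate 3. On plate 3 each of the 8 cathepsins was lower at day 4 than in uncrushed wells, from -0.72 for Ctsd to -5.87 for Ctss.

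**Figure D3:**
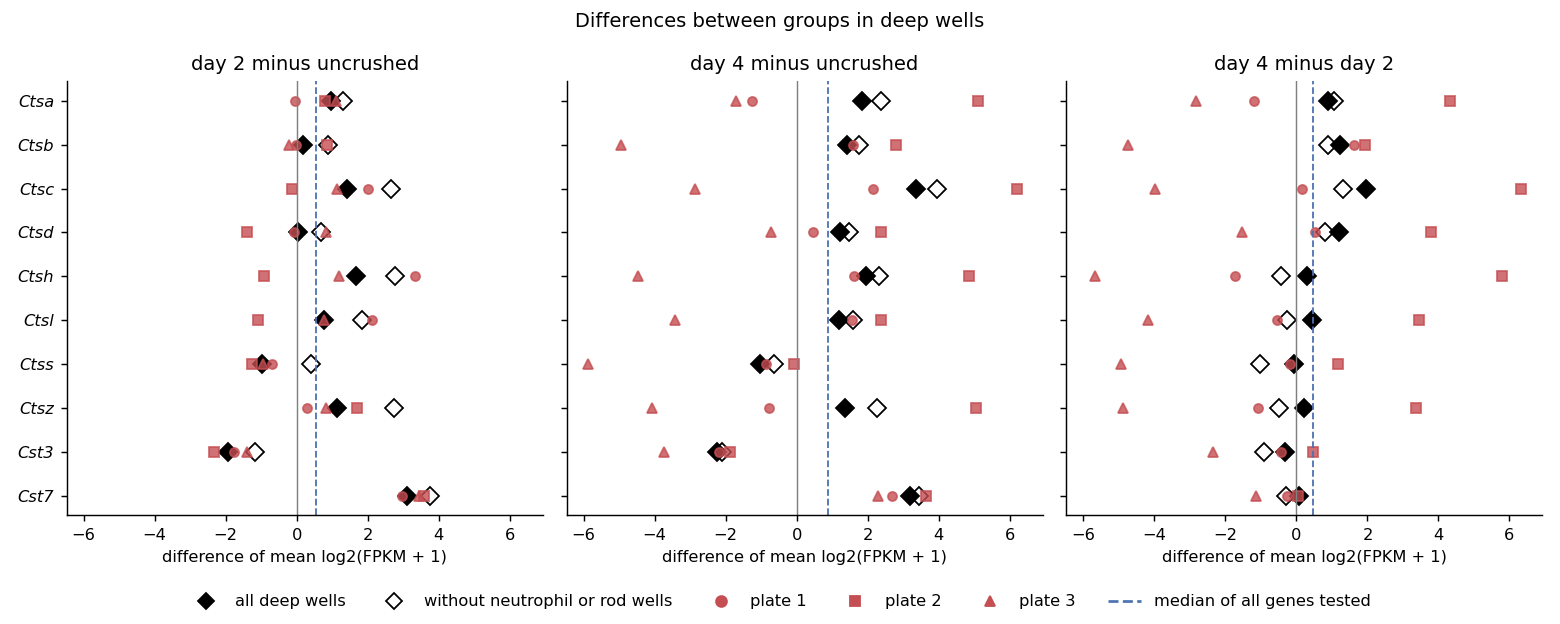
Difference of mean log2(FPKM + 1) between groups for each gene, over all deep wells (filled diamonds), without wells holding neutrophil or rod markers (open diamonds) and within each plate (red symbols); the dashed line is the median of all genes tested. Cst3 and Cst7 keep their side on every plate against uncrushed wells, while the cathepsins at day 4 spread from plate 3 (2 day 4 wells) on the left to plate 2 on the right.

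Ctss (ENSMUSG00000038642, chr3:95526786-95556403) encodes cathepsin S, a cysteine protease of macrophages and microglia that trims the invariant chain and stays active at neutral pH. It had the highest median FPKM of the cathepsins, at 26.6, 11304 and 45869 FPKM (lowest, median, highest) in uncrushed wells. At day 2 these were 16.3, 6470 and 25709, and at day 4 8.64, 5506 and 16309. Ctss exceeded the uncrushed median in 10 of 25 day 2 wells and 1 of 24 day 4 wells. Mean differences were -0.96 and -1.03. At day 2 the sign rested on wells with other markers: without wells of neutrophil or rod markers it was 0.41, and at day 4 it was -0.63. Within plates the day 4 difference was -0.86, -0.067 and -5.87, and without plate 3, which held 2 day 4 wells, it was -0.54. Wells with neutrophil markers had a median Ctss of 29.4 FPKM, against 7617 in the 75 others.

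Ctsc (ENSMUSG00000030560, chr7:88278085-88310888) encodes cathepsin C, a dipeptidyl peptidase that activates serine proteases of granules. It ran 0, 0.535 and 450 FPKM (lowest, median, highest) uncrushed, 0, 4.18 and 625 at day 2, and 0, 242 and 1154 at day 4. Wells at 10 reads numbered 13 of 39 (33.3%, 19.1 to 50.2), 12 of 25 (48%, 27.8 to 68.7) and 17 of 24 (70.8%, 48.9 to 87.4). Groups overlapped, since each held wells at 0. Its differences were 1.42 at day 2, 3.36 at day 4 (96th highest of 6362 genes) and 1.95 between the days. Within plates the day 4 difference was 2.16, 6.20 and -2.87, and without plate 2 the difference between the days was -0.20. Of the members, Ctsc followed the number of genes in a well most closely (Spearman rho 0.64 over 88 deep wells, a description), and genes per well was highest at day 4. Ctsa (0.50), Ctsh (0.47) and Cst7 (0.36) came next, and Cst3 alone was negative (-0.30). In wells with neutrophil markers Ctsc reached 10 reads in 0 of 9, against 40 of 75 others.

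Ctsh (ENSMUSG00000032359, chr9:90054152-90076089), an aminopeptidase of the cysteine class, ran 0, 1.70 and 1273 FPKM (lowest, median, highest) uncrushed, 0, 141 and 1294 at day 2, and 0, 235 and 533 at day 4. It reached 10 reads in 16 of 39, 14 of 25 and 15 of 24 wells. The differences from uncrushed wells were 1.67 and 1.96, with plate values of 3.34, -0.92 and 1.20 at day 2. The median was higher after crush, while the highest well was at a like level at day 2 and lower at day 4.

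Ctsb (ENSMUSG00000021939, chr14:63122462-63145923), a broad cysteine protease, and Ctsd (ENSMUSG00000007891, chr7:142375911-142388038), the aspartic protease, were in most wells of all groups. Ctsb ran 0.693, 573 and 1994 FPKM (lowest, median, highest) uncrushed, 0.695, 417 and 2718 at day 2, and 5.98, 894 and 2723 at day 4. Ctsd ran 2.13, 2489 and 6402 FPKM, then 3.98, 1662 and 7833, then 38.9, 2827 and 10305. Their differences were 0.19 and 0.028 at day 2 and 1.42 and 1.23 at day 4. Without neutrophil or rod wells the day 2 values were 0.88 and 0.67, and between the days Ctsb (0.88) and Ctsd (0.81) no longer reached 1. Their wells at 10 reads numbered 33, 21 and 23 for Ctsb and 35, 24 and 23 for Ctsd, of 39, 25 and 24. For Ctsd, 808 of 2351 exon bases are shared with Gm49369 on the same strand, so reads there cannot be told apart, and the levels of both followed each other with rho 0.98 over 88 wells. Ctsb shares 774 exon bases with Fdft1 on the other strand.

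Ctsz (ENSMUSG00000016256, chr2:174427493-174439039) encodes cathepsin Z, a carboxypeptidase of the cysteine class. Its lowest, median and highest FPKM were 1.44, 999 and 8040 uncrushed, 0, 1419 and 5841 at day 2, and 0, 2474 and 5784 at day 4. It reached 10 reads in 28 of 39, 21 of 25 and 18 of 24 wells, and its differences were 1.14 and 1.36. On the ratio of mean FPKM the day 2 difference was -0.0099. Median and highest well therefore went opposite ways, and the groups overlapped throughout.

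Ctsl (ENSMUSG00000021477, chr13:64359337-64370890), a cysteine endopeptidase, ran 0, 28.5 and 1723 FPKM uncrushed, 0.263, 91.1 and 870 at day 2, and 0.181, 115 and 991 at day 4. Ctsa (ENSMUSG00000017760, chr2:164832873-164841032) ran 0, 0.887 and 1130, then 0, 17.1 and 738, then 0, 183 and 482. Ctsl reached 10 reads in 23, 15 and 18 wells and Ctsa in 14, 13 and 15. For both the median was higher after crush and the highest well lower. Their differences were 0.77 and 1.20 for Ctsl and 0.96 and 1.84 for Ctsa. Of the exon bases of Ctsl, 1742 are shared with the antisense gene Gm47123, and 495 of Ctsa with Pltp on the other strand, so those reads cannot be assigned without strand. Pltp followed Ctsa with rho 0.90.

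**Figure D4:**
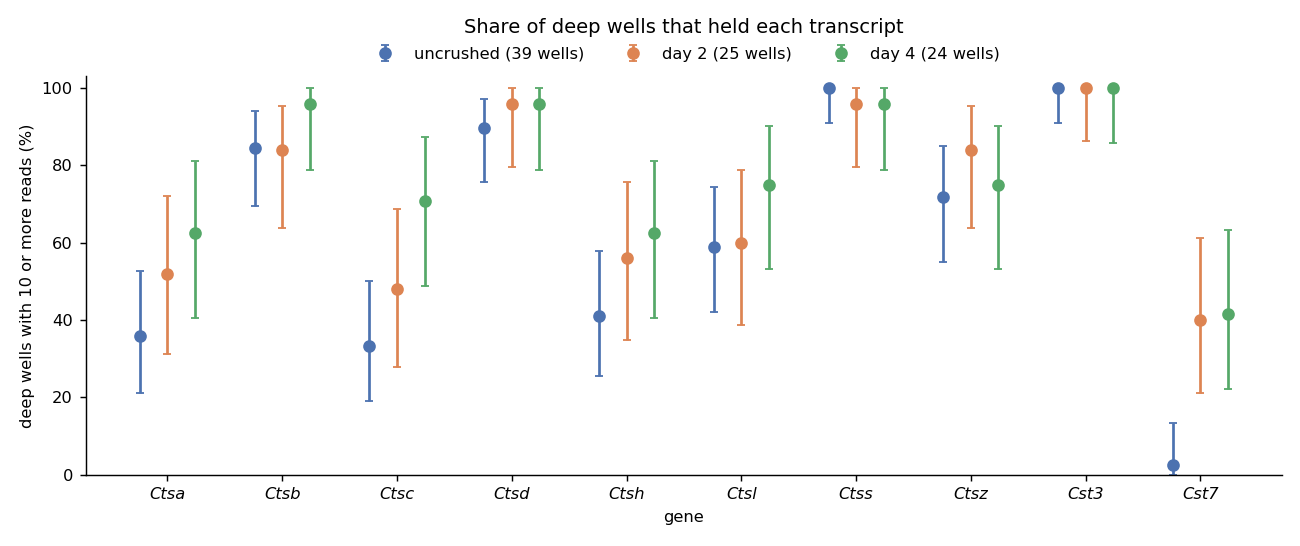
Percent of deep wells in which each gene reached 10 reads, by group, with exact Clopper-Pearson 95% intervals (counting error only). Cst7 stands at 2.56% uncrushed against 40% and 41.7% after crush, while Cst3 is at 100% in every group and Ctsc goes from 33.3% through 48% to 70.8%.

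The median number of members at 10 reads was 6 of 10 in uncrushed, 8 in day 2 and 8.5 in day 4 deep wells, beside 3161, 3777 and 4992 genes of any kind. On plate 3 it was 7, 7.5 and 3, the last from 2 wells, and over all wells, deep and shallow, 5, 5.5 and 4. All 10 were present in 0 of 39, 7 of 25 and 8 of 24 deep wells, a count limited by Cst7, which reached 10 reads in 1, 10 and 10. The 45 pairs of members had Spearman correlations from -0.15 to 0.63 over 88 deep wells, with a median of 0.28, and all 28 pairs of cathepsins were positive. Within uncrushed wells Ctsa had -0.13 with Ctss, -0.014 with Ctsd and -0.011 with Ctsh, and the other cathepsin pairs were positive. Without neutrophil or rod wells Ctsc and Ctss had -0.050, and the other cathepsin pairs were positive. Wells share plates and differ in depth and number of genes, so these values are descriptions. Ctss and Cst3 were most alike (0.63, and 0.58, 0.80 and 0.42 within the groups). Ctsb and Ctsz followed (0.61), then Ctsb and Ctsd (0.51) and Ctsc and Ctsh (0.51). Cst7 and its known target Ctsc had 0.33 (-0.012, 0.56 and 0.15 within the groups), with both at 10 reads in 16 wells. With the other members that count ran from 16 wells (Ctsl) to 21 (Ctsd, Ctss and Cst3), so the count with Ctsc does not stand out. Cst3 and Cst7 had -0.14 over all deep wells, but 0.0075, 0.12 and 0.32 within the groups.

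Among 1154 genes at 10 reads in at least 25% of deep wells, those most like Cst3 after Ctss were Sparc (0.61), a matrix protein of microglia, and C1qb (0.58), a complement chain. Ccdc152 (0.52) and Rn7s2 (0.49) came next. Like Ctss were Cst3, then Gfm2 (0.63), C1qb (0.54) and Hexa (0.50). Like Ctsb were Ctsz, Nelfcd (0.54), which overlaps Ctsz by 10 exon bases, Ctsd, Trem2 (0.51), a lipid receptor of microglia, and Lgmn (0.48). Like Cst7 were Banf1 (0.56), Axl (0.52), a receptor kinase for dying cells, Uba1 (0.50), Ndufs8 (0.49) and Atp5k (0.47). For Cst7 the values were lower within uncrushed wells, from 0.12 to 0.28.

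Of 16 other cystatins and relatives, Cstb alone reached 10 reads in at least 5 deep wells. Cstb, cytosolic cystatin B, did so in 4 of 39, 10 of 25 and 15 of 24 wells, with medians of 0, 0 and 258 FPKM. Its mean was 1.12 ± 2.82, 3.71 ± 4.58 and 5.95 ± 4.52, so it lay 2.59 higher at day 2 and 4.83 higher at day 4. Within plates the day 4 difference was 4.28, 5.82 and -0.63. The cystatins thus went different ways: Cst3 was lower, and Cst7 and Cstb were higher, in deep wells after crush.

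Of 14 other cathepsins, Ctsf and Ctso reached 10 reads in at least 5 deep wells, and 12 did not. Ctso was at 10 reads in 2, 3 and 10 wells, with differences of 0.41 (below the filter) and 2.01. It passed the filter at day 4 through day 4 wells alone, which favours a higher value. Within plates the day 4 difference of Ctso was 0.75, 4.69 and -1.01. Ctsf was at 10 reads in 8, 4 and 9 wells, with differences of -0.59 and 0.55. Of 16 lysosomal partners, activators and sorting factors, 5 were tested at day 2 and 9 at day 4, of which 1 and 6 were higher by 1 or more, against 28.7% and 44.4% of all genes tested, and 0 were lower. At day 2 M6pr, Gnptg, Nagpa, Glb1 and Scarb2, and at day 4 Neu1, were below the filter, so their values there are not in these counts. M6pr, Gnptg, Nagpa, Glb1 and Scarb2 are among the 6 higher at day 4 and passed that filter through day 4 wells alone. Neu1, the 1 higher at day 2, passed through day 2 wells alone. The filter itself favoured a higher value for these genes, so the counts are no result about the list. Lgmn, the legumain protease that processes cathepsins, differed by 0.52 and 1.08, and M6pr, a receptor that carries lysosomal enzymes, by -0.16 and 1.77. Within plates 1, 2 and 3 the day 4 difference of Lgmn was -0.30, 3.59 and -4.02. Gnptg, of the enzyme that adds the mannose phosphate tag, differed by 0.47 and 1.36, and the sialidase Neu1, which Ctsa protects, by 1.33 and 0.40. Without neutrophil or rod wells the day 2 difference was 0.011 for Neu1, the 1 gene of the list past 1 at that day, and 2.34 for Lgmn. The galactosidase Glb1 differed by 0.027 and 1.09, and the membrane protein Scarb2 by 0.94 and 1.19. M6pr, Gnptg, Glb1 and Scarb2 were higher at day 4 on plates 1 and 2, and lower on plate 3, which held 2 day 4 wells. Of 7 substrates in antigen presentation and granules, 1 passed the filter: Cd74, the invariant chain cut by cathepsin S, which differed by 0.10 and 0.94. Within plates the day 4 difference of Cd74 was 0.49, 3.24 and -2.49. H2-Ab1, a class II chain below the filter, differed by 0.019 and 0.16. Pairs of values are day 2, then day 4, each against uncrushed deep wells.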

How the data were processed

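Single wells were sequenced from amplified full-length complementary DNA with Nextera XT libraries, per the labels' protocols. The authors' deposited values are FPKM for 55364 genes. The submitters' processing notes name Trim Galore 0.4.4, Trimmomatic 0.36, cutadapt 1.16, STAR 2.7.2b and featureCounts 1.6.1 with GRCm38.p6 (mm10), and their order and settings are not given in the sources used here. There are no molecular identifiers. FPKM times length in kilobases summed to 1000000 in each well, and its most frequent value above 0 was taken as 1 read. Only 40.9% of recovered values under 100 came within 0.01 of a whole number, so no count test was run. Every column of per-well values was used.

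Wells with 50000 or more reads were called deep. Differences are of mean log2(FPKM + 1), with a pseudocount of 1, over genes that 25% or more of the deep wells of either group held at FPKM 1 or above. No test or p-value is given, because each group is 1 sample. The code was tested on simulated data. With wells resampled at the real group sizes (24 and 39), spread between wells alone put 17.0% of unchanged genes past 1. Genes raised or lowered 4-fold there had median differences of 1.05 and -0.70. A difference of 1 is therefore a size and not a sign of change. Doublets were not called. Other genes were named from lists where 10 reads were reached in at least 5 deep wells, up to 6 per list by the largest difference, and likeness by the 5 highest Spearman correlations, of which 1 gene is not reported here. Members and lists were chosen with earlier results of these data known. Alternatives covered pseudocounts, filters, scaling, thinning, plates, tags, cell type markers and gene length. The software was scipy 1.17.1, pandas 2.3.3 and numpy 2.4.6 under Python 3.11.15, with matplotlib 3.10.9.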

Additional observations from a re-analysis of the deposited data

How the results depend on the processing

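No paired analysis was possible because replicate numbers only name wells and no test was run; every plate holds all groups, and differences within plates stand in the text. Cst3 against uncrushed deep wells stayed lower in all 15 alternatives at day 2 and all 16 at day 4. Its day 2 difference was -1.31 over all wells, -2.47 centred on the median gene, -1.17 without neutrophil or rod wells and -1.15 in deep microglia wells, and its day 4 difference was -1.22 over all wells. Cst7 stayed higher in all 15 and 16. At day 2 it was 3.92 and 2.21 with pseudocounts of 0.1 and 10, 2.57 centred, 3.76 without neutrophil or rod wells, 2.56 on the ratio of mean FPKM, 3.68 in microglia wells and 3.53 with wells split at 200000 reads. At day 4 it was 4.39 and 1.95 with those pseudocounts, 2.01 over all wells, 2.30 centred, 0.94 on the ratio of means and 3.99 without the 18 wells whose tag differs. Between the days Cst7 was -1.03 over all wells, -1.62 on the ratio of means and 0.88 without those 18. The Cst7 share counted at 1 read was 35.9% uncrushed and 70.8% at day 4. The uncrushed share was 33.3% over all wells at FPKM 1 and 0% without plate 2. The median Cst3 share of reads at day 2 was 2.66% without neutrophil or rod wells. Members higher by 1 or more at day 2 numbered 2 when centred and 2 on the ratio of means. Members lower at day 2 numbered 2 when centred, when rescaled to reads outside members, mitochondrial and ribosomal protein genes, without plate 1, or split at 200000 reads. At day 4 the higher numbered 3 centred, 2 without plate 2 and 1 on the ratio of means. The lower numbered 1 over all wells, without plate 3, without neutrophil or rod wells, without the 18 wells, and in microglia wells. Between the days the higher numbered 1 over all wells, centred or on the ratio of means, 6 without plate 1, without plate 3 or without the 18 wells, and 0 without plate 2. The lower numbered 4 without plate 2, and 1 over all wells, without neutrophil or rod wells, or on the ratio of means. Of differences past 1, signs reversed without plate 2 for Ctsa (-0.41), Ctsh (-0.035) and Ctsz (-1.16) at day 4 and for Ctsc between the days (-0.20), and on the ratio of means for Ctsz at day 2 (-0.0099). Of smaller differences, those between the days without plate 2 turned to -1.11 for Ctsa, -2.24 for Ctsh, -1.03 for Ctsl and -1.70 for Ctsz, and Ctss at day 2 to 0.41 without neutrophil or rod wells, among others. The cause was not tested. Over all alternatives, 191 values of the main results and 533 of single members moved by less than 1.5 times (counts), 1 SD or the counting interval, against 51 and 57 that moved further. Microglia wells, the split at 200000 reads, principal lengths, overlapping genes and shares without plates were chosen after seeing the data. In shallow wells, where 1 read passes FPKM 1, a low member cannot be told from absence.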
